A study of Mus musculus with 8 samples.

Results

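Collagens are the fibrous and sheet-forming proteins of the extracellular matrix, and 44 genes that encode collagen chains were found among the 29092 genes of the mRNA count table by their symbols, which read *Col*, a type number, *a* and a chain number. They were compared between enteric neural crest-derived cells (ENCDCs), the GFP+ cells that give rise to the neurons and glia of the enteric nervous system, and the GFP- cells of the same bowels, which are called gut cells here. Both populations came from E13.5 bowel, stomach to anus, of embryos from matings of heterozygous *Ednrb-EGFP* mice with wild-type C57BL/6J mice. GFP+ bowels were picked by microscope, so the embryos used carried the reporter. The labels give the genotype as wild-type, while the sample titles read EDNRB-GFP bowel. EGFP follows *Ednrb*, the endothelin receptor gene of migrating crest cells, so the sort divided the cells by *Ednrb* reporter activity, and the gut fraction is a mixture of every cell type without it. There were 4 libraries of each population, made from 750 pg of RNA each, and RNA samples were pooled where needed, so p-values measure the spread between these libraries.

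A collagen molecule is made of 3 chains wound around each other, and the chains of a given type must be made in the same cell. The chains are hydroxylated and folded in the endoplasmic reticulum, exported, trimmed and crosslinked outside the cell. Fibrillar collagens form the ropes of connective tissue, type IV forms the sheet of basement membranes, type VI forms beaded filaments, and FACIT collagens (fibril-associated collagens with interrupted triple helices) sit on the surface of fibrils. In the embryonic bowel the mesenchyme is the classical source of fibrillar collagen, and crest cells migrate through this matrix.

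The counts summed to between 13250893 and 13267220 in each library, so equal counts stand for nearly equal shares of a library. The sort was visible in marker genes. All 9 markers of enteric crest progenitors and all 8 neuronal markers were higher in ENCDCs, and 10 of 12 mesenchyme markers and 10 of 10 smooth muscle markers were lower in them. The other mesenchyme markers were *Fbln1*, which was higher in ENCDCs, and *Dpt*, which had no count in any ENCDC library and was not called. ENCDC replicate 3 stood apart from the other ENCDC libraries. It lay at -116.7 on the second principal component, which held 11.4% of the variance, while the other ENCDC libraries lay between 30.51 and 43.63. Log2 differences of named genes that moved by over 1.5 times without it are also given without it.

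Most collagen genes were lower in ENCDCs, and a small group was higher. Of the 44 genes, 42 had enough counts to be tested, and 30 were lower and 5 higher in ENCDCs (edgeR's quasi-likelihood test, Benjamini-Hochberg adjusted p under 0.05 over 18866 genes). Among all genes tested, 37.9% were called, 20.9% as lower and 17.0% as higher. By the fitted value each of the 30 lower and 5 higher genes differed by at least 2-fold. Among all genes tested this held for 3046 of 3946 lower and 1558 of 3212 higher genes. In edgeR's test against a 2-fold change 27 collagen genes were lower and 4 higher, beside 2031 and 983 of all 18866 genes. The median log2 difference, ENCDC minus gut, was -2.89 over the 42 collagen genes and -0.04 over all genes tested. In 32 of the 42 no ENCDC library overlapped a gut library, and this held for 38.2% of all genes tested. In bulk libraries, fewer cells of a type and less RNA per cell cannot be told apart.

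Low counts touch part of this list. *Col17a1*, *Col19a1*, *Col24a1*, *Col15a1*, *Col4a6*, *Col6a4*, *Col6a6*, *Col28a1*, *Col4a3* and *Col6a5* passed the filter on low counts only through the gut libraries, so lower values in ENCDCs were favored for these 10 genes. The other 32 passed in both populations, and of these 23 were lower, 5 were higher and 4 were not called, with a median log2 difference of -2.80. Over the 15297 genes that passed in both populations the median was 0.03. *Col4a4* (5 counts in ENCDC replicate 2 and none elsewhere) and *Col10a1* (9 and 1 counts in ENCDC replicates 1 and 4 and 4 in gut replicate 2) were too low to be tested.

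**Figure D1:**
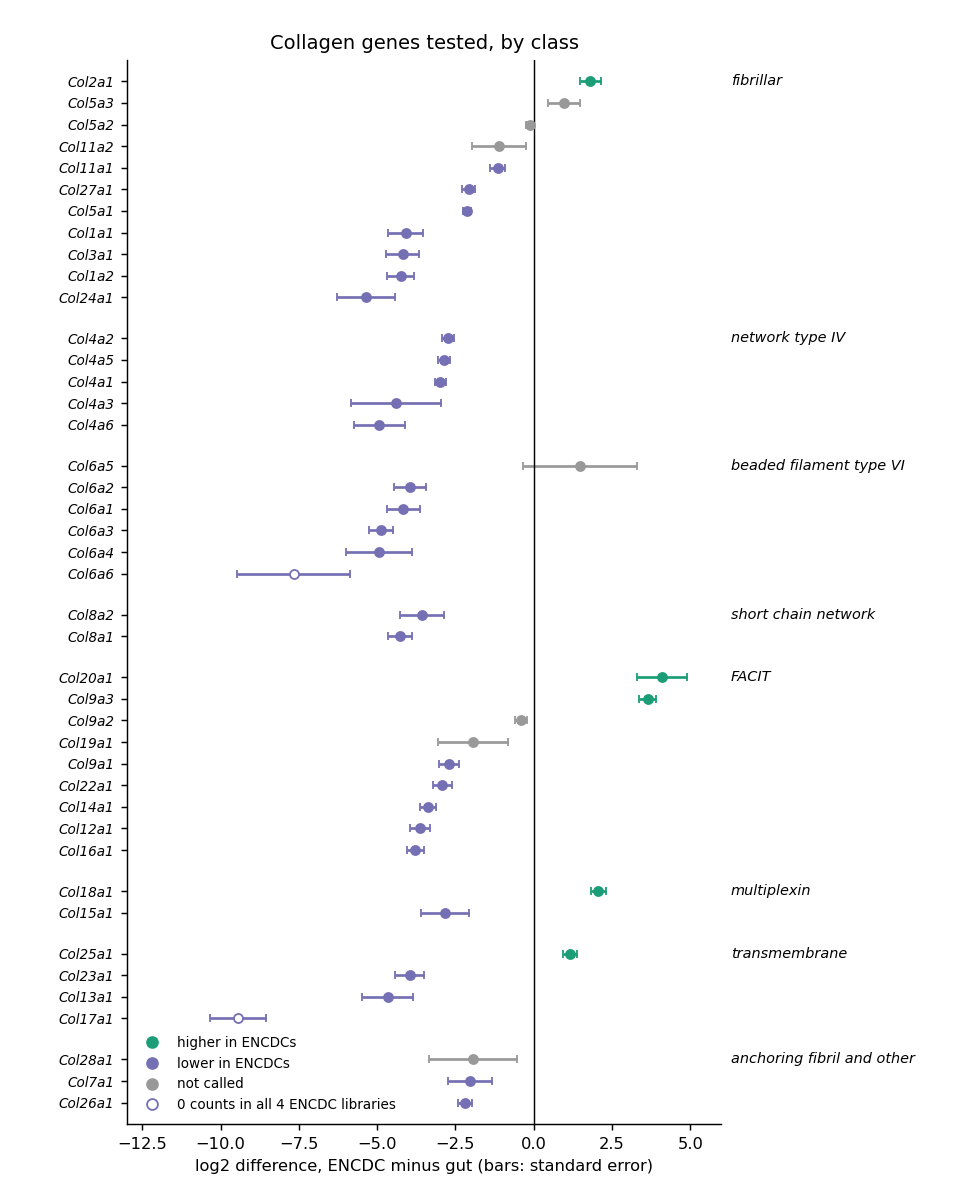
Log2 difference (ENCDC minus gut, horizontal axis) of the 42 collagen genes tested, grouped by class, with the standard error as a bar. Green points were called higher in ENCDCs, purple points lower and grey points not called, and open points mark *Col6a6* and *Col17a1*, which had no count in the 4 ENCDC libraries. The 5 higher genes lie to the right in green, 1 each among fibrillar, multiplexin and transmembrane collagens and 2 among the FACITs.

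*Col18a1* was the collagen gene with the highest level per kb of exon in ENCDCs and was 4.16-fold higher there than in gut cells. It encodes type XVIII collagen, a heparan sulfate proteoglycan of basement membranes whose C-terminal fragment is endostatin. Its counts were 4894, 4590, 5976 and 6015 in ENCDC replicates 1 to 4 and 1178, 1061, 2178 and 920 in gut replicates 1 to 4. The lowest ENCDC library held more than the highest gut library. The log2 difference was 2.06 (SE 0.24, edgeR adjusted p 5.79e-05), and it was 2.01 without ENCDC replicate 3. The other multiplexin, *Col15a1*, a basement membrane collagen of muscle and vessels, was lower in ENCDCs, with counts of 5, 1, 3 and 1 against 16, 16, 25 and 20 in gut cells (log2 difference -2.84, edgeR adjusted p 0.0126).

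*Col9a3* was 12.45-fold higher in ENCDCs, while the other genes of its collagen type were not. Type IX collagen is a FACIT of cartilage built from the products of *Col9a1*, *Col9a2* and *Col9a3*. *Col9a3* counts were 991, 955, 1111 and 766 in ENCDCs and 62, 74, 127 and 54 in gut cells (log2 difference 3.64, SE 0.26, edgeR adjusted p 1.34e-06). Every ENCDC library was far above every gut library. *Col9a2* had similar counts in both populations, 631, 460, 873 and 518 in ENCDCs and 947, 725, 882 and 836 in gut cells. It was not called (log2 difference -0.40, edgeR adjusted p 0.115), but without ENCDC replicate 3, which was its highest ENCDC library, it was called lower (-0.60, edgeR adjusted p 6.23e-03). *Col9a1* was lower in ENCDCs, with counts of 35 to 92 against 262 to 431 (log2 difference -2.70, edgeR adjusted p 5.99e-05). The 3 chains of 1 collagen type thus gave a higher gene, a gene that was not called and a lower gene. Of the exon bases of *Col9a3*, 234 lie under *Tcfl5* on the opposite strand, and the library kit did not keep strand. *Tcfl5* had 206 counts over the 8 libraries and *Col9a3* had 4140.

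*Col2a1*, the fibrillar collagen of cartilage, was higher in ENCDCs by 3.51-fold. Its counts were 595, 546, 382 and 560 in ENCDCs and 82, 105, 252 and 174 in gut cells, with no overlap (log2 difference 1.81, SE 0.33, edgeR adjusted p 1.22e-03). ENCDC replicate 3, which had the highest counts of many other collagen genes, had the lowest *Col2a1* count among ENCDCs. Without it the log2 difference was 1.94.

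*Col25a1* encodes a transmembrane collagen whose shed part is found in amyloid plaques and which takes part in motor innervation of muscle. It was 2.23-fold higher in ENCDCs, with counts of 1027, 696, 713 and 1069 against 387, 287, 543 and 414 in gut cells (log2 difference 1.15, SE 0.22, edgeR adjusted p 1.66e-03). The populations did not overlap, but a difference beyond 2-fold was not shown for it (edgeR test against a 2-fold change, adjusted p 0.359).

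*Col20a1*, a FACIT, was near the detection limit in gut cells. Its counts were 81, 84, 134 and 144 in ENCDCs and 5, 3, 18 and 0 in gut cells, and the log2 difference was 4.11 (SE 0.80, edgeR adjusted p 2.02e-03). Gut replicate 3 was the highest gut library, and without it the log2 difference was 5.36. Its exons share 79 bases with a gene on the same strand, *BX649560.1*, which had 279 counts against 469 for *Col20a1*. *Col9a3* (chr2:180597790-180622189) and *Col20a1* (chr2:180986535-181018363) lie 364.3 kb apart and in the same direction on the plus strand of chromosome 2 (GENCODE M21, GRCm38). The other higher genes lie apart from them, *Col18a1* at chr10:77052178-77166548 on the minus strand, 326 kb from the lower gene *Col6a1*, *Col2a1* at chr15:97975602-98004695 on the minus strand and *Col25a1* at chr3:130131501-130599877 on the plus strand.

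**Figure D2:**
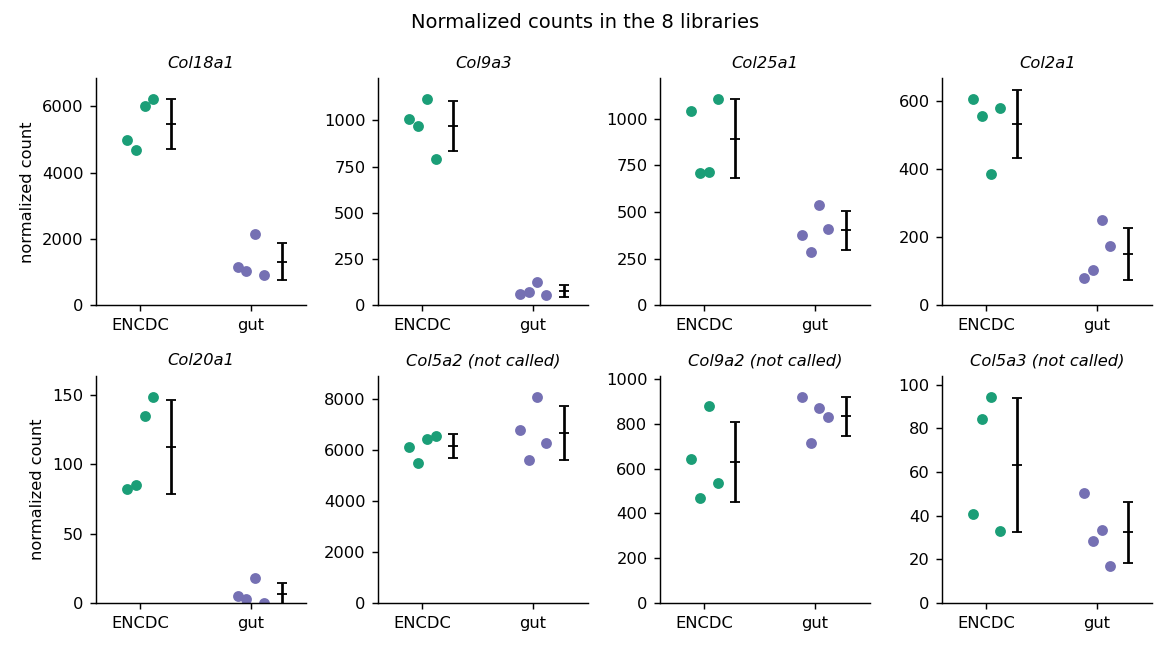
Normalized counts (vertical axes, each starting at 0) of the 5 collagen genes higher in ENCDCs and of *Col5a2*, *Col9a2* and *Col5a3*, which were not called. Each point is a library, green for ENCDC and purple for gut, and the bar beside the points is the mean with its SD (n = 4). For the first 5 genes the green points all lie above the purple ones, and for the last 3 the points overlap.

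Short stretches of sequence at RefSeq starts of the genes are printed, for an overlap that bears on how counts can be read and for motif matches. RefSeq windows of 300 bases around the start (GRCm38.p6) were matched for 35 of the 44 genes, 3 of them among the genes higher in ENCDCs (*Col18a1*, *Col20a1* and *Col25a1*). *Col4a1* and *Col4a2*, the genes of the main chains of type IV collagen, start head to head on chromosome 8 and share 22 bases of their first exons, at chr8:11312805-11312826. The stretch around this overlap is shown on each strand, 5′ to 3′, because reads from it cannot be given to 1 of the genes without strand, and capitals mark the shared bases:
Col4a1 (chr8:11312801-11312830, minus strand): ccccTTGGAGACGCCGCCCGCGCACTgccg
Col4a2 (chr8:11312801-11312830, plus strand): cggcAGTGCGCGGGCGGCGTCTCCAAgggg

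The windows were searched on both strands for the CCAAT box, the GC box written GGGCGG, the TATA box written TATAAA and the core of SOX protein sites written AACAAT, none of which contains another. The SOX core was found in none of the 4 windows of genes higher in ENCDCs (*Col18a1* has 2 windows) and in 1 of the 26 windows of lower genes, and 10.7% of all 32851 promoter windows held it. The lower gene was *Col3a1*, where a match on each strand overlapped the other. The CCAAT box was in 2 of 4 windows of higher genes, 10 of 26 of lower genes and 37.4% of all windows. The GC box was in 2 of 4, 17 of 26 and 35.7%, and the TATA box in 0 of 4, 3 of 26 and 13.6%. On either strand, the window at the upstream start of *Col18a1* held 3 GC box matches and that of *Col25a1* held 2, and not all are printed. The stretches with the *Col3a1* match, and with some of these GC box matches, are shown with the matches in capitals:
Col3a1 (chr1:45311339-45311354, plus strand): acaAACAATTGTTgta
Col18a1 (chr10:77166565-77166594, minus strand): gccCCGCCCatcgagctgtctCCGCCCcgt
Col25a1 (chr3:130180802-130180813, plus strand): aggGGGCGGtcc
The other *Col18a1* window and the *Col20a1* window held none of the 4 motifs. The *Col25a1* window, chr3:130180595-130180894, lies inside the gene as placed above, downstream of its first base at chr3:130131501, so it surrounds an internal start. The count table gives 1 value for *Col18a1*, so its starts cannot be told apart in these data.

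Fibrillar collagens made up most of the collagen counts in both populations. Of the 11 fibrillar genes, 7 were lower, *Col2a1* was higher and 3 were not called, with a median log2 difference of -2.08. *Col3a1*, the gene of the type III collagen of distensible organs, was the most abundant collagen gene in gut cells. Its counts were 5084, 1811, 13263 and 2760 in ENCDCs and 108213, 94477, 124248 and 103250 in gut cells, and the populations did not overlap. The ENCDC mean was 5796 ± 5208 normalized counts and the gut mean 105804 ± 12368 (SD, n = 4 each), an 18.26-fold difference (log2 difference -4.19, SE 0.53, edgeR adjusted p 1.01e-04). The type I chains behaved alike. *Col1a1* counts were 956, 327, 3021 and 623 in ENCDCs and 20991, 17350, 24980 and 22756 in gut cells (log2 difference -4.09, SE 0.57, edgeR adjusted p 1.98e-04). *Col1a2* counts were 1262, 380, 2117 and 688 against 21067, 17923, 26181 and 21833 (log2 difference -4.25, SE 0.44, edgeR adjusted p 2.17e-05). All 3 genes were highest among ENCDCs in replicate 3, and without it the log2 differences were -5.01 for *Col3a1*, -5.03 for *Col1a1* and -4.75 for *Col1a2*.

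*Col5a2* had a similar level in both populations. Type V collagen is a minor fibrillar collagen that starts the assembly of type I fibrils, and its usual molecule has chains from *Col5a1* and *Col5a2*. *Col5a2* counts were 6022, 5407, 6402 and 6354 in ENCDCs and 6979, 5688, 8212 and 6348 in gut cells. The populations overlapped, and the log2 difference was -0.12 (SE 0.11, edgeR adjusted p 0.437). *Col5a1* was lower in ENCDCs, with counts of 1226 to 1781 against 6009 to 8103 (log2 difference -2.12, SE 0.13, edgeR adjusted p 4.34e-07). *Col5a2* and *Col3a1* lie tail to tail on chromosome 1 with 24.61 kb between them, and their log2 differences were -0.12 and -4.19.

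The other fibrillar genes had fewer counts. *Col11a1*, which encodes a chain of the fibril-starting type XI collagen, was lower, with counts of 275 to 543 in ENCDCs and 697 to 892 in gut cells (log2 difference -1.15, edgeR adjusted p 2.04e-03), and this call was lost in the test against a 2-fold change (adjusted p 0.368). *Col27a1* had counts of 82 to 100 against 330 to 453 and was lower, with a small spread in both populations (log2 difference -2.08, edgeR adjusted p 1.26e-05). *Col24a1* had 12, 0, 0 and 1 counts in ENCDCs and 92 to 203 in gut cells (log2 difference -5.36, edgeR adjusted p 9.21e-04), and without ENCDC replicate 1 the log2 difference was -8.24. *Col5a3* had counts of 40, 83, 94 and 32 in ENCDCs and 52, 29, 34 and 17 in gut cells and was not called (log2 difference 0.96, SE 0.51, edgeR adjusted p 0.165). *Col11a2* had 13, 0, 40 and 18 against 30, 35, 56 and 37 counts and was not called either (log2 difference -1.11, SE 0.87, edgeR adjusted p 0.358), and without ENCDC replicate 3 the log2 difference was -1.86 (edgeR adjusted p 0.105).

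All 5 type IV genes tested were lower in ENCDCs. *Col4a1* counts were 677, 440, 833 and 796 in ENCDCs and 5801, 4863, 5935 and 5744 in gut cells (log2 difference -2.98, SE 0.18, edgeR adjusted p 3.88e-07). *Col4a2* counts were 340, 336, 615 and 410 against 2987, 2414, 3394 and 2975 (log2 difference -2.74, SE 0.20, edgeR adjusted p 1.22e-06). The head-to-head pair thus differed by similar amounts between the populations, 7.86-fold and 6.70-fold. *Col4a5* and *Col4a6*, which lie head to head on the X chromosome with 1.308 kb between them, gave unequal values. *Col4a5* counts were 92, 108, 164 and 124 in ENCDCs and 925, 836, 1104 and 792 in gut cells (log2 difference -2.86, edgeR adjusted p 1.13e-06). *Col4a6* counts were 13, 0, 0 and 25 against 238, 356, 363 and 258 (log2 difference -4.93, SE 0.82, edgeR adjusted p 7.07e-04), and without ENCDC replicate 4 the log2 difference was -6.05. *Col4a3* was close to the detection limit, with 1 count over the ENCDC libraries and 10, 4, 0 and 18 in gut cells. Its call (edgeR adjusted p 0.0331) was lost without ENCDC replicate 2, 3 or 4 (adjusted p 0.0697, 0.0526 and 0.0681). Without replicate 1, which held that count, the log2 difference was -6.00 and the call was kept (edgeR adjusted p 0.0469). The gut to ENCDC ratio of its counts was 32, with an exact 95% interval of 5.35 to 1303 that covers counting error only, and 563 of its exon bases lie under *C430014B12Rik* on the opposite strand.

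Type VI collagen links cells to the surrounding fibrils, and its common molecule is built from the products of *Col6a1*, *Col6a2* and *Col6a3*. The 3 genes were 15.47-fold to 29.21-fold lower in ENCDCs. *Col6a1* counts were 477, 203, 1321 and 218 in ENCDCs and 10542, 8613, 12243 and 9419 in gut cells (log2 difference -4.16, SE 0.53, edgeR adjusted p 1.07e-04). *Col6a2* counts were 444, 100, 998 and 275 against 7154, 6576, 8502 and 6692 (log2 difference -3.95, SE 0.52, edgeR adjusted p 1.38e-04). *Col6a3* counts were 143, 38, 186 and 71 against 3459, 3105, 3713 and 2913 (log2 difference -4.87, SE 0.38, edgeR adjusted p 2.35e-06). Replicate 3 was the highest ENCDC library in each, and without it *Col6a1* and *Col6a2* gave -5.04 and -4.67.

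The genes of the alternative chains of type VI collagen lie in a row on chromosome 9. *Col6a4* counts were 0, 1, 108 and 0 in ENCDCs and 706, 858, 1426 and 490 in gut cells, so nearly all ENCDC counts came from replicate 3. The log2 difference was -4.95 (SE 1.06, edgeR adjusted p 3.47e-03), and it was -10.84 without that library. *Col6a5* had 66 counts in ENCDC replicate 3, none in the other ENCDC libraries and 22, 0, 1 and 1 in gut cells. It was not called (log2 difference 1.48, SE 1.81, edgeR adjusted p 0.563), and the direction turned without ENCDC replicate 3 (-5.58, adjusted p 0.0784). *Col6a6* had no count in ENCDCs and 34, 28, 41 and 0 in gut cells. With a floor of 3 counts over the 4 ENCDC libraries it was at least 33.7-fold lower (edgeR adjusted p 0.0114).

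Both short chain genes tested were lower in ENCDCs. They encode type VIII collagen, a network former of vessel walls and of the cornea. *Col8a1* counts were 40, 7, 36 and 29 in ENCDCs and 557, 455, 601 and 626 in gut cells (log2 difference -4.27, SE 0.39, edgeR adjusted p 8.26e-06). *Col8a2* counts were 58, 7, 198 and 16 against 705, 807, 1039 and 838 (log2 difference -3.56, SE 0.71, edgeR adjusted p 2.27e-03), and without ENCDC replicate 3 the log2 difference was -4.91. No ENCDC library reached the lowest gut library for either gene.

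Among the 9 FACIT genes, 5 were lower, *Col9a3* and *Col20a1* were higher and 2 were not called. *Col14a1*, *Col16a1* and *Col12a1*, whose products coat fibrils of connective tissue, were lower in ENCDCs. *Col14a1* counts were 258, 139, 317 and 168 in ENCDCs and 2237, 1970, 3084 and 2165 in gut cells (log2 difference -3.38, SE 0.25, edgeR adjusted p 1.79e-06). *Col16a1* counts were 219, 98, 117 and 130 against 2016, 1355, 2635 and 2042 (log2 difference -3.78, SE 0.28, edgeR adjusted p 1.40e-06). *Col12a1* counts were 135, 40, 134 and 134 against 1447, 1242, 1625 and 1356 (log2 difference -3.63, SE 0.31, edgeR adjusted p 5.12e-06). The populations did not overlap in any of the 3. *Col22a1*, a collagen of muscle and tendon junctions, had counts of 23 to 53 against 269 to 325 (log2 difference -2.92, edgeR adjusted p 2.18e-05). *Col19a1*, which lies tail to tail with *Col9a1* at 9.205 kb, had 0, 13, 0 and 27 counts against 54, 17, 58 and 33 and was not called (log2 difference -1.94, SE 1.12, edgeR adjusted p 0.203), although voom and limma called it (adjusted p 0.0236). Without ENCDC replicate 4 the log2 difference of *Col19a1* was -3.14 (edgeR adjusted p 0.0704).

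Apart from *Col25a1*, the transmembrane collagens were lower in ENCDCs. *Col23a1* was the most abundant of them in gut cells, with counts of 200, 152, 745 and 165 in ENCDCs and 5226, 4698, 5224 and 5069 in gut cells (log2 difference -3.96, SE 0.46, edgeR adjusted p 5.39e-05). Replicate 3 stood far above the other ENCDC libraries, and without it the log2 difference was -4.82. *Col13a1*, a collagen of cell adhesion sites and the neuromuscular junction, had counts of 1, 6, 55 and 2 against 533, 313, 391 and 453 (log2 difference -4.67, SE 0.81, edgeR adjusted p 9.21e-04), and the log2 difference was -7.02 without ENCDC replicate 3. *Col17a1*, a collagen of epithelial hemidesmosomes, had no count in ENCDCs and 123, 65, 56 and 111 in gut cells, so it was at least 116-fold lower at a floor of 3 counts over the 4 ENCDC libraries (edgeR adjusted p 7.66e-05).

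Of the remaining 3 genes, *Col26a1* was lower, with counts of 157, 172, 304 and 291 in ENCDCs and 1136, 940, 1170 and 1115 in gut cells (log2 difference -2.19, SE 0.22, edgeR adjusted p 1.85e-05). *Col7a1*, the collagen of anchoring fibrils, had 13, 36, 64 and 4 counts in ENCDCs and 129, 63, 220 and 85 in gut cells. The populations overlapped at ENCDC replicate 3 and gut replicate 2. Its call (log2 difference -2.04, SE 0.70, edgeR adjusted p 0.0392) was lost in 6 of 8 fits that left out a library, with adjusted p up to 0.134, and without ENCDC replicate 3 its log2 difference was -2.75. *Col28a1* had 11 counts in ENCDC replicate 2 alone and 6, 2, 32 and 5 in gut cells and was not called (log2 difference -1.94, SE 1.42, edgeR adjusted p 0.318). Its value moved to -6.49 without ENCDC replicate 2, where it was called (adjusted p 0.0233), and to -0.58 without gut replicate 3.

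Collagen took 0.213% ± 0.0768 of all counts of an ENCDC library and 1.62% ± 0.204 of those of a gut library (SD, n = 4 each), and the highest ENCDC library, 0.322% in replicate 3, was below the lowest gut library, 1.40%. Without ENCDC replicate 3 the ENCDC mean was 0.177%. The make-up differed as well as the amount. Fibrillar genes held 57.6% ± 5.38 of the collagen counts in ENCDCs and 77.3% ± 0.371 in gut cells. Multiplexins, nearly all of it *Col18a1*, held 20.2% ± 5.14 against 0.617% ± 0.183, and FACITs 8.35% ± 1.43 against 3.45% ± 0.124. Type VI held 3.58% ± 2.01 against 10.1% ± 0.466. Type IV held 4.54% ± 0.775 and 4.55% ± 0.174, shares that differed by less than their spread. The single genes with the largest shares were *Col5a2* (23.0% ± 5.90), *Col18a1* (20.2% ± 5.14) and *Col3a1* (17.7% ± 9.79) in ENCDCs, and in gut cells *Col3a1* held 50.1% ± 0.674.

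**Figure D3:**
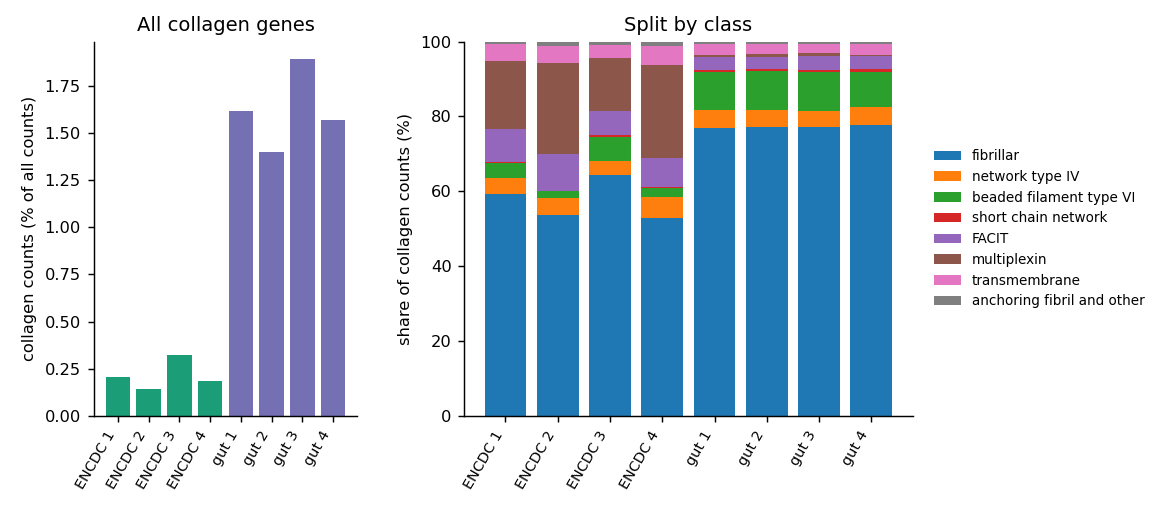
Left, the summed counts of the 44 collagen genes as a percentage of all counts in each library, with the 4 ENCDC libraries in green and the 4 gut libraries in purple. Right, the same collagen counts split by class, each bar adding to 100%. The gut bars on the right are nearly alike, while the ENCDC bars hold a brown multiplexin band of 14.0% to 24.7%.

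Levels of different genes were compared as normalized counts per kb of exon. In ENCDCs the order began with *Col18a1* (778 ± 108), *Col5a2* (642 ± 49.5), *Col3a1* (590 ± 531), *Col9a3* (252 ± 35.0) and *Col9a2* (204), and neighbors in this order overlapped in their ranges (SD, n = 4). Without ENCDC replicate 3 the *Col3a1* level was 335 ± 174 per kb (SD, n = 3), with each of these libraries below every *Col5a2* value. In gut cells it began with *Col3a1* (10779 ± 1260), above every other collagen gene without overlap, followed by *Col1a1* (3227), *Col6a1* (2292) and *Col1a2* (1722), and *Col18a1* came 15th at 187 per kb. The level of *Col5a2* per kb in gut cells was 698, close to its ENCDC level.

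Ratios between chains of the same type, on the per kb scale, were similar in both populations for some types and not for others. *Col1a1* to *Col1a2* was 1.43, 1.63, 2.70 and 1.71 in the ENCDC libraries and 1.81 to 1.97 in the gut libraries. Thus 3 ENCDC libraries lay below every gut library and replicate 3 lay above them, and the ENCDC mean was 1.87 ± 0.567 (SD, n = 4) with replicate 3 and 1.59 ± 0.144 (SD, n = 3) without it. *Col4a1* to *Col4a2* was 1.46 ± 0.326 and 1.69 ± 0.100, and *Col6a1* to *Col6a2* was 2.48 ± 1.01 and 2.68 ± 0.134. The ratios of types IV and VI overlapped between the populations, also without ENCDC replicate 3. *Col5a1* to *Col5a2* was 0.279, 0.256, 0.314 and 0.264 in the ENCDC libraries and 1.05, 1.19, 1.11 and 1.12 in the gut libraries. *Col9a3* to *Col9a2* was 1.29 ± 0.274 in ENCDCs and 0.0755 ± 0.0302 in gut cells, and *Col9a1* to *Col9a2* was 0.0523 ± 0.0104 and 0.266 ± 0.0580. For types V and IX no ENCDC library overlapped a gut library. These ratios follow from the counts of the genes above and were not tested on their own.

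**Figure D4:**
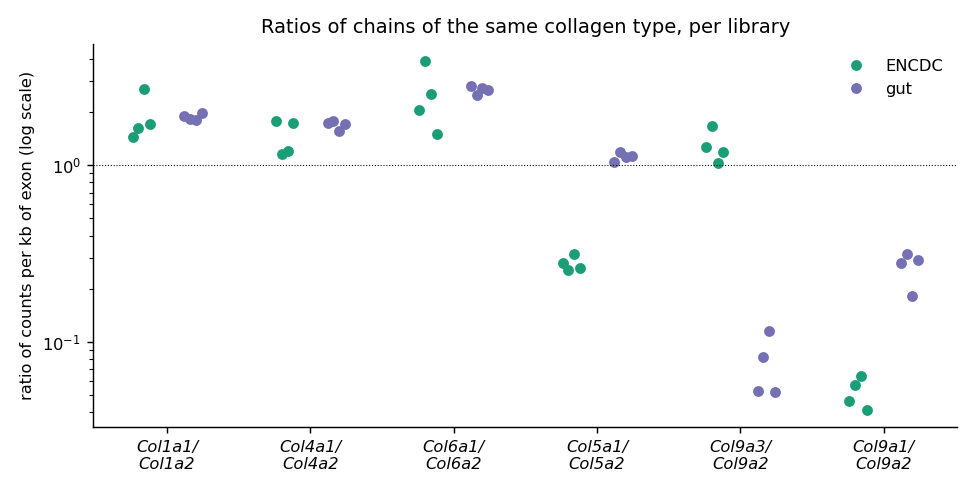
Ratio of normalized counts per kb of exon (vertical axis, log scale) between genes of the same collagen type in each of the 8 libraries, ENCDC in green and gut in purple, with a dotted line at 1. Points of both colors mix for types IV and VI, for type I the ENCDC points lie on both sides of the gut points (3 below and replicate 3 above), and the *Col5a1* to *Col5a2* ratio lies near 0.278 in ENCDCs and 1.12 in gut cells.

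The lower genes did not have the same residual level in every ENCDC library. As a percentage of the gut mean, the median over the 30 lower genes was 9.256% in ENCDC replicate 1, 2.488% in replicate 2, 13.497% in replicate 3 and 4.719% in replicate 4. The mean of these was 7.49% ± 4.90 (SD, n = 4), and 5.49% without replicate 3. Of the 30 genes, 18 were highest in ENCDC replicate 3, 3 in replicate 4 and 1 in replicate 2. The other 8 were counted under replicate 1. They include *Col17a1* and *Col6a6*, which had no count in any ENCDC library and so were highest in none. *Col1a1*, *Col6a1*, *Col23a1* and *Col3a1* were 4.05-fold to 4.67-fold above the mean of the other ENCDC libraries in replicate 3, while *Col5a2* was at 1.06-fold, *Col18a1* at 1.14-fold, *Col9a3* at 1.21-fold and *Col5a1* at 1.25-fold.

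Markers of smooth muscle, mesenchyme, pericytes, mesothelium, epithelium, macrophages and erythroid cells were, like the collagen median, at their highest percentage of gut in ENCDC replicate 3. Endothelial markers were not, at 9.91%, 24.3%, 13.4% and 30.4% in ENCDC replicates 1 to 4, and epithelial markers, at 7.06%, 15.2%, 21.3% and 16.2%, were lowest in replicate 1, where the collagen median was above those of replicates 2 and 4. For the smooth muscle markers the median percentage of gut was 6.27%, 3.72%, 17.0% and 2.31% in ENCDC replicates 1 to 4, and the summed normalized counts of the 10 markers ran from 1599 to 10330 in ENCDCs and from 52105 to 64707 in gut cells. For the 10 mesenchyme markers that were lower it was 3.55%, 3.14%, 9.74% and 3.50%. The sum over all 12 ran from 6096 to 10880 in ENCDCs and from 26033 to 30084 in gut cells, and most of it in ENCDCs was *Fbln1*. Pericyte markers (6 of 6 lower) summed to 623 to 1425 against 10305 to 12390, and mesothelial markers (6 of 7 lower) to 93.6 to 347 against 2219 to 4154, both highest in ENCDC replicate 3. Epithelial markers (6 of 8 lower) summed to 251 to 475 against 2249 to 3391. Endothelial markers (5 of 9 lower, *Kdr* higher) summed to 856 to 1364 against 1123 to 1610. Most of this sum in ENCDCs was *Kdr*, with a mean of 842.4 normalized counts against 318.5 in gut cells. Macrophage markers (9 of 9 lower) summed to 59.0 to 201 against 5122 to 10199. Erythroid markers (7 of 7 lower) summed to 260.5 to 652 against 18378 to 48852. No defining marker except *Dpt* was at 0 in all ENCDC libraries. The part that such cells had in the counts of the lower collagen genes was not tested.

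**Figure D5:**
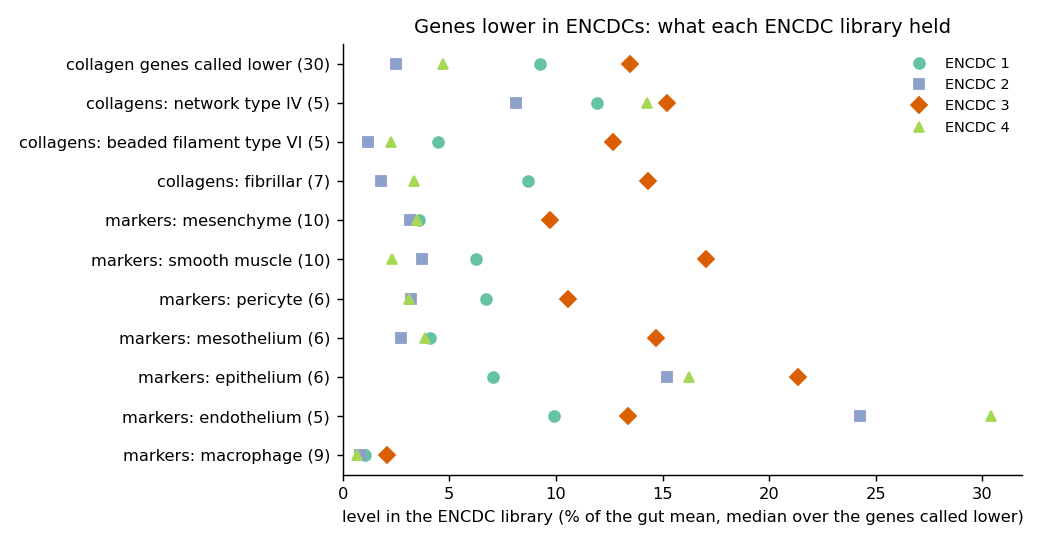
Level in each ENCDC library as a percentage of the gut mean (horizontal axis), as the median over the genes called lower in each list, with the number of genes in parentheses. Orange diamonds mark ENCDC replicate 3, which is the highest for the 30 lower collagen genes (13.497%) and for smooth muscle markers (17.0%) but not for endothelial markers. The 5 lower FACIT genes, which are not drawn, were highest in ENCDC replicate 1 (11.3%, against 9.72% in replicate 3).

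Genes that act on collagen chains and fibrils were also mostly lower in ENCDCs. Of 56 such genes, 54 were tested, and 39 were lower, 2 were higher and 13 were not called, with a median log2 difference of -1.55. Over all genes tested 20.9% were lower and 17.0% higher, with a median of -0.04, and the lists below are to be read beside these shares. Genes that act mostly in the endoplasmic reticulum, some of which also serve other proteins, are on the hydroxylase and folding lists. Their medians were nearer to 0 than those of propeptide processing, crosslinking and fibril-binding proteoglycan genes, but the receptor list was nearest, at -0.50. Of 12 hydroxylase and glycosyltransferase genes 10 were lower, with a median of -0.82. *P4hb*, the protein disulfide isomerase subunit of prolyl hydroxylase, differed by -0.41 (edgeR adjusted p 3.88e-03), *Colgalt1* by -0.60 (1.51e-03), *P4ha1* by -0.74 (2.62e-04) and *P3h3* by -1.93 (4.69e-07). Of 10 folding and export genes 8 were lower, with a median of -1.01. *Serpinh1*, the collagen chaperone HSP47, had counts of 9820, 10582, 14238 and 10641 in ENCDCs and 18680, 18476, 19521 and 19957 in gut cells (log2 difference -0.71, SE 0.11, edgeR adjusted p 3.02e-04), and ENCDCs thus held 61.1% of the gut level. *Sec23a*, a COPII coat gene, differed by -0.54 (edgeR adjusted p 9.41e-03), *Crtap* by -1.31 (3.22e-05) and *Fkbp10* by -2.21 (9.38e-06).

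Of 8 propeptide processing genes tested 5 were lower, with a median of -2.90, among them *Bmp1*, the C-proteinase (log2 difference -1.08, edgeR adjusted p 1.82e-04), *Pcolce*, its enhancer (-3.00, 8.33e-05), *Adamts2*, an N-proteinase (-3.81, 1.74e-04) and *Tll1* (-4.52, 5.52e-04), which gave -5.13 without ENCDC replicate 1 (edgeR adjusted p 7.34e-04). Of 5 crosslinking genes the 3 called were all lower, *Loxl2* (log2 difference -2.13, edgeR adjusted p 2.66e-05), *Lox* (-3.54, 2.30e-03) and *Loxl1* (-4.16, 1.10e-06). Of 8 proteoglycan genes that bind fibrils 7 were lower, including *Bgn* (log2 difference -3.86, edgeR adjusted p 8.72e-06), *Dcn* (-4.23, 8.40e-06), *Ogn* (-4.47, 2.13e-05) and *Lum* (-4.90, 1.02e-05), and without ENCDC replicate 3 *Lum* gave -5.50. *Prelp*, the exception, anchors basement membranes to connective tissue. Its counts were 150, 142, 86 and 154 in ENCDCs and 25, 18, 23 and 55 in gut cells, without overlap (log2 difference 2.18, SE 0.43, edgeR adjusted p 2.02e-03).

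Collagen receptor genes split. Of 11 genes 6 were lower and 1 higher, with a median of -0.50. *Ddr1* and *Ddr2* encode receptor tyrosine kinases that bind collagen, and they differed in opposite directions. *Ddr1* counts were 2037, 1963, 3023 and 3126 in ENCDCs and 1363, 1244, 1346 and 1339 in gut cells (log2 difference 0.99, SE 0.16, edgeR adjusted p 5.18e-04). The normalized count of *Ddr2* was 83.0 ± 88.0 in the ENCDC libraries and 1380 ± 165 in the gut libraries (SD, n = 4; log2 difference -4.05, edgeR adjusted p 5.76e-04), and without ENCDC replicate 3 the log2 difference was -5.00. *Itgb1*, the beta subunit shared by the collagen-binding integrins, differed by -0.45 (edgeR adjusted p 5.81e-04), and *Mrc2*, which takes up collagen for breakdown, by -2.74 (1.36e-07).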

How the data were processed

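For 29092 genes the authors deposited counts of whole reads. They made them from mRNA reads aligned to mm10 with STAR 2.4.2a, which PORT brought to one depth, and they deposited the minimum count, that is, reads assigned without ambiguity. The design text of the deposit names small RNAs and CPM, while the title, the methods and the values are those of mRNA counts. Each library sums to 13250893 to 13267220 counts, so genes with few counts are imprecise. Intervals and floors cover counting error only.

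ENCDC and gut libraries (4 each) were compared with edgeR 4.0.16 in R 4.3.3 by its quasi-likelihood F test after TMM scaling. P-values were adjusted by the Benjamini-Hochberg method over all 18866 genes tested. A gene was tested where, in 1 population or both, its counts averaged 3 or more and at least 3 of 4 libraries had a count. Calls used an adjusted p under 0.05. The SE is the one implied by the F statistic. The fit was tested on simulated data. Alternatives were voom and limma 3.58.1 (the study's test), DESeq2 1.42.0, other factors and filters, a replicate block, a test against a 2-fold change and leaving out each library. Gene positions, exon lengths and overlaps came from GENCODE M21, which held 29035 of the gene IDs, and promoter windows from RefSeq. Tables and plots were made in Python 3.11.15 with pandas 2.3.3 and matplotlib 3.10.9.

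The collagen genes, their classes and the lists of other genes were chosen with earlier results of these data known. Counts in every library are given for each collagen gene called higher, for the 4 with the highest mean in each class and for each that was tested and not called. On the lists of genes that make or bind collagen the 4 called genes with the highest mean, and those called against their list's main direction, are named. *Col21a1*, a FACIT, had no row under that symbol. Chain ratios and levels per kb without ENCDC replicate 3 were added after the data were seen. Small RNA data were not analysed here.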

Additional observations from a re-analysis of the deposited data

Results flagged for a closer look

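In each population the 4 libraries were searched for a value far from the other 3 by Dixon's test at the 95% level, over 86 groups of 4 values. This set apart 11 groups. The test sets apart about 1 in 20 by chance where values are normally distributed. Counts with many zeros are not, so the 11 groups cannot be compared with that rate. Where 3 of the 4 values are 0, the gap over the range is 1.000 for any count. The values are normalized counts, and the gap over the range is given in brackets. ENCDC replicate 3 was high for *Col23a1*, with 748.4 against 154.7 to 203.2 (0.918), for *Col13a1*, with 55.25 against 1.016 to 6.105 (0.906), for *Col6a4*, with 108.5 against 0 to 1.017 (0.991), and for *Col6a5*, with 66.3 against 0 (1.000).

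ENCDC replicate 1 was high for *Col11a1*, with 551.6 against 276.3 to 298.7 (0.919), and for *Col24a1*, with 12.19 against 0 to 1.034 (0.915). It also held the single count of *Col4a3* (1.000). ENCDC replicate 2 was low for *Col12a1*, with 40.7 against 134.6 to 138.5 (0.960), and was alone in having counts of *Col28a1*, 11.19 normalized (1.000). In gut cells, replicate 3 was high for *Col28a1*, with 31.59 against 1.971 to 5.832 (0.870), and replicate 1 was high for *Col6a5*, with 21.38 against 0 to 0.9906 (0.954). Log2 differences without the library set apart are given above for *Col23a1*, *Col13a1*, *Col6a4*, *Col6a5*, *Col24a1* and *Col28a1*.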

How the results depend on the processing

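The number of higher collagen genes was 4 to 5 and of lower ones 27 to 30 under all alternatives. Against a 2-fold change, edgeR called 3014 genes in place of 7158 (32.6% of them higher, in place of 44.9%) and 1 higher gene of collagen making and binding in place of 2, as a stricter test does, and without 1 library that count ran from 2 to 4 (4 without gut replicate 2, where *Ppib* and *Itga2* were called too). Over single collagen genes and alternatives, 639 values kept their call, 16 lost a call, 3 gained one and 0 turned direction among called genes. The 639 include values of genes not called that turned direction, such as *Col6a5* with voom and limma (log2 difference -0.35, in place of 1.48). Genes without a test result in an alternative are not in these numbers. *Col6a6* and *Col4a3* had a result in 12 alternatives each, *Col6a5* in 11 and *Col28a1* in 15, against 16 for every other member tested. Under edgeR's filterByExpr filter *Col6a6* and *Col4a3*, called lower above, were not tested, and 28 collagen genes were lower. The lost calls were those of *Col4a3* and *Col7a1*, and, against a 2-fold change, of *Col11a1* and *Col25a1*. The cause was not tested. *Col4a3* was also lost with voom and limma (adjusted p 0.0960), DESeq2 (0.0518) and the replicate block (0.0688). Deviations of libraries with the same replicate number had correlations of -0.0133 to 0.0318 across genes, and 2 of 4 ENCDC libraries correlated best with their own number. With 4 libraries of each population this check cannot tell whether the numbers mark pairs. With the replicate block 2609 genes were higher and 3324 lower, and 5 collagen genes were higher and 29 lower. Among other genes, 820 values kept their call, 21 lost a call and 13 gained one. The 820 also include turned directions of genes not called, such as *Gp6* with voom and limma (-0.45, in place of 0.98). At this depth genes with few counts in ENCDCs, such as *Col24a1*, *Col4a6* and *Col28a1*, gave values that moved with single libraries.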
